A study of Mus musculus with 12 samples.

Results

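The stretch of mouse chromosome 12 from 17 to 25 Mb is one of the places in the genome where trimethylated lysine 9 of histone H3 (H3K9me3) is packed most closely. It was taken here as every region of the authors' deposited table that starts between these coordinates (mm10), which gave 468 of 68291 regions, and no filter on signal was applied. The window was selected on the density of its regions and on their fold changes in this same table, so these values are given as a description. The study set Tex19.1-/- mouse embryonic stem cells against Tex19.1+/- cells. Both derive from E14Tg2a cells of 129/Ola background, at passage 12 to 20, and the control cells themselves carry 1 mutant allele of Tex19.1. H3K9me3 chromatin immunoprecipitation followed by sequencing (ChIP-seq) and its input were each done in 3 libraries per genotype. For 6 of the 12 libraries the title and the genotype entry disagree, and the title was followed. Whether replicate libraries stand for separate cultures or clones is not stated.

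The table gives for each region 1 log2 fold change between the genotypes, 1 mean signal as log2 CPM (read counts adjusted for the size of each library), a p-value and its adjusted form (FDR). Every fold change, CPM, p-value and FDR given here is that of the authors' deposited table or computed from it. It holds 0 columns of single libraries, so the spread between replicates cannot be shown, and it does not say which genotype is the reference. Changes are therefore described by sign, as deposited. The error given beside a fold change was derived from the authors' p-value and is left out where that p-value is too large to give one. No markers of the cell type could be checked, since RNA was not measured in these libraries.

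H3K9me3 is the main histone mark of constitutive heterochromatin. It is written by the SUV39H enzymes and by SETDB1 and is bound by HP1 proteins, which compact the chromatin. In embryonic stem cells SETDB1 is brought to endogenous retroviruses by zinc finger proteins with a KRAB domain and their cofactor TRIM28, and clusters of duplicated genes also carry broad H3K9me3. Tex19.1 is active in pluripotent cells, placenta and germ cells of mammals, and mouse testes that lack it hold more transcripts of some retrotransposons.

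The RefSeq table of promoters (assembly GRCm38.p6, the assembly of mm10, with 250 bases before and 50 after each start) holds 90 promoters of 76 genes in the window. Of these, 4 overlapped an H3K9me3 region (4.44%), against 2.73% of the 32851 promoters in the whole table. The 3 that lay wholly inside a region are printed first, because they are the places where the mark covers an annotated start, followed by the promoter of Rrm2 as an example from an unmarked gene of the window. Capitals mark CpG dinucleotides, the substrate of DNA methylation in mammals.
Gm32719, chr12:20240489-20240788, plus strand: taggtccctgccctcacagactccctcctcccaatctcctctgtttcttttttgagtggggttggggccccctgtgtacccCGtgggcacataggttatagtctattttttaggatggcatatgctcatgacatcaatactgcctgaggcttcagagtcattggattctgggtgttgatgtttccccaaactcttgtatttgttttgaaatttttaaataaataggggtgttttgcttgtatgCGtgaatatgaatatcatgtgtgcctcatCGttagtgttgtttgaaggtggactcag
Gm40850, chr12:18134388-18134687, minus strand: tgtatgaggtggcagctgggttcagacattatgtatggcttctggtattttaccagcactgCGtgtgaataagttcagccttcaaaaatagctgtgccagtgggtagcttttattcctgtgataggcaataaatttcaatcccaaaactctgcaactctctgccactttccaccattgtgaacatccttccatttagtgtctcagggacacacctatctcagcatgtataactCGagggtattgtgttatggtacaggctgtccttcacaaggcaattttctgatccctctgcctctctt
Gm46325, chr12:17458880-17459179, minus strand: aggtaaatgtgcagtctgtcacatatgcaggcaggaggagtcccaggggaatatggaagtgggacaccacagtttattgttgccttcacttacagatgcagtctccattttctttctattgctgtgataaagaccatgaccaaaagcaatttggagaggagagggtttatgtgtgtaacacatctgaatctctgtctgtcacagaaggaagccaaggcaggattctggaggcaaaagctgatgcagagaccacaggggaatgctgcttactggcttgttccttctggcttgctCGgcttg
Rrm2, chr12:24708004-24708303, plus strand: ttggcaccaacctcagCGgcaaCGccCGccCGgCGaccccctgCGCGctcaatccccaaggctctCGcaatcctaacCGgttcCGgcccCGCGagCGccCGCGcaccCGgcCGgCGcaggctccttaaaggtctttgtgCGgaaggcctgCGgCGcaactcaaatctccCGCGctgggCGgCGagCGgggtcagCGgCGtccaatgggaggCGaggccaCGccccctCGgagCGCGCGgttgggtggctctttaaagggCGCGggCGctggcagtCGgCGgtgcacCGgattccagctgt
The 3 covered promoters held 3, 2 and 1 CpG in the order printed. The fourth overlapping promoter, that of Gm40855, held 5. The promoter of Rrm2 held 40, near the maximum of 42 in the window, so it does not stand for unmarked promoters in general. Low counts were also found without a region, such as 0 at Gm6626 and 1 at Gm9241. The median was 8 over the 90 promoters of the window and 7 over all promoters of the table. The motif CG reads the same on both strands.

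The next promoters are printed because they show how much of the window is duplicated. Capitals mark the bases that differ within each pair, unmatched bases at the ends included.
Gm9295, chr12:22674003-22674302, minus strand: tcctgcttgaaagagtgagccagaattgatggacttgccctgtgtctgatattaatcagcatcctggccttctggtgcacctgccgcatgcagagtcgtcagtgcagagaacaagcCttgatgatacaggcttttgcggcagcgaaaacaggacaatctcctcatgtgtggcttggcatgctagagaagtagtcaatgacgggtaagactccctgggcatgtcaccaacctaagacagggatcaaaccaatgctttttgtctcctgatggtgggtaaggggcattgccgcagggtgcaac
Gm5954, chr12:24019817-24020116, minus strand: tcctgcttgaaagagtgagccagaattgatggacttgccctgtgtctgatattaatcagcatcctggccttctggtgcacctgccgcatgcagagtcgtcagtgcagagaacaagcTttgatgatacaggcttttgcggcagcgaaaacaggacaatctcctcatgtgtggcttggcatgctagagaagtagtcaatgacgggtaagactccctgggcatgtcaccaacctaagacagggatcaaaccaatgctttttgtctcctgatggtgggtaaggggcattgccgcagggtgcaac
Gm9241, chr12:18735571-18735870, plus strand: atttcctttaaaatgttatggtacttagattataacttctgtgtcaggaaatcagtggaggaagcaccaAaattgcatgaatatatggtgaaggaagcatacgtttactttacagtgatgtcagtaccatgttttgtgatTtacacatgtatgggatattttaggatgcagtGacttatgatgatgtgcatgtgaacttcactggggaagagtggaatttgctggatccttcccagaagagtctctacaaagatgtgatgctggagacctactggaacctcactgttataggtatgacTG
Gm40856, chr12:21996033-21996332, minus strand: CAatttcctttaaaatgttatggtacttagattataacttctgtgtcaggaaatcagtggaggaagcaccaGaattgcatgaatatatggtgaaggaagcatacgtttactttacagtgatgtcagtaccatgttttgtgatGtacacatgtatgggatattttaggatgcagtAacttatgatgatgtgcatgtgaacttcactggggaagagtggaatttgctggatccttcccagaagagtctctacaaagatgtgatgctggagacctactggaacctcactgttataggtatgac
The first pair matched at 299 of 300 bases over a distance of 1.35 Mb. The second matched at 295 bases, with 3 mismatches and 4 unpaired bases, over 3.26 Mb and on opposite strands. None of these 4 promoters overlapped a region.

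The window held more H3K9me3 than any other of 324 windows of 8 Mb laid along the chromosomes. It ranked first for number of regions, for covered bases and for summed signal. These windows started at 1 Mb on each chromosome, so that the one from 17 to 25 Mb was kept whole. Dense stretches elsewhere could be cut between windows, and incomplete windows at chromosome ends were left out. Since this window was chosen for its density, its rank is a description. Regions covered 98.1 kb per Mb in the window, against a median of 28.0 kb per Mb in the other 323 windows, a ratio of 3.50. Summed signal was 1396 CPM per Mb, against a median of 360.0 CPM per Mb, a ratio of 3.88. The next highest windows were chromosome 18 from 1 to 9 Mb with 1141 CPM per Mb and chromosome 7 from 25 to 33 Mb with 1098 CPM per Mb. The window thus held 1.03% of the CPM of the whole table.

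The window held more regions and a larger share of broad and strong ones, while its median region was close to that of all regions. The median region of the window had 9.20 CPM, a width of 790.5 bp and 11.4 CPM per kb. Over all regions the medians were 8.44 CPM, 773.0 bp and 11.3 CPM per kb. Neighbouring regions of the window lay a median of 2591 bp apart, against 12140.5 bp over all chromosomes, and 77.5% of the gaps were under 10 kb, against 46.5%. Broad regions were more frequent, with 30 of 468 (6.41%) at least 5 kb wide, against 2.35% in the rest of the genome. The 39 regions of at least 64 CPM held 5423 of the 11166 CPM of the window. Width and CPM rose together across its regions (rank correlation 0.97), so breadth and strength cannot be told apart. The density did not run on past the window. The Mb before it held 14 regions with 111 CPM and the Mb after it held 20 regions with 130 CPM.

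Within the window the signal was uneven. The Mb from 20 to 21 Mb held 114 regions covering 271.7 kb, with 4551 CPM. The Mb from 18 to 19 Mb had 2005 CPM, that from 17 to 18 Mb 1479 CPM, that from 19 to 20 Mb 1248 CPM and that from 21 to 22 Mb 964 CPM. From 22 to 23 Mb there were 9 regions with 63.0 CPM, and 23 to 24 Mb and 24 to 25 Mb held 509 and 347 CPM. The largest gap between neighbouring regions, 483891 bp, ran from 23272995 to 23756886.

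**Figure D1:**
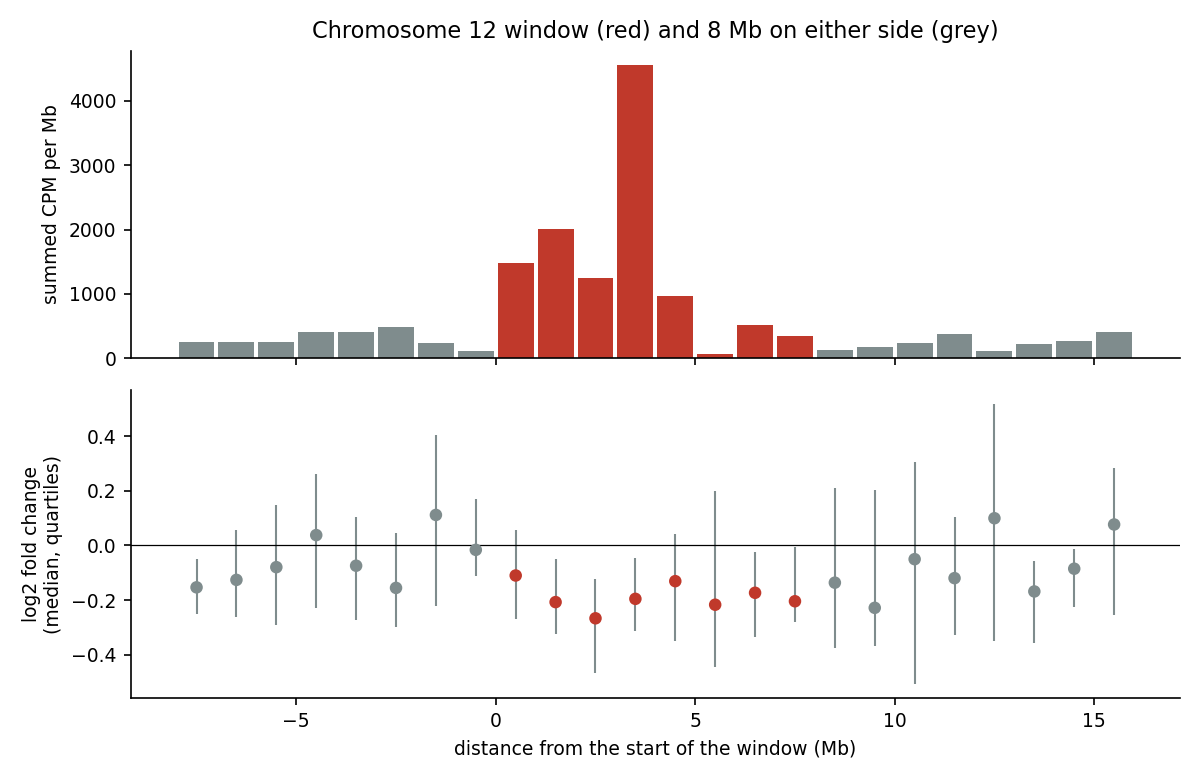
Summed H3K9me3 signal in CPM (top) and the deposited log2 fold change between genotypes (bottom; points are medians over regions and bars reach the quartiles) for each Mb of the window, in red, and of the 8 Mb on either side, in grey. The bar of 4551 CPM is the Mb from 20 to 21 Mb, and the medians of the 8 red points lie between -0.27 and -0.11.

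The deposited fold changes of the window were negative in most regions. The median log2 fold change was -0.20, a ratio of 0.871, against -0.04 in the rest of chromosome 12 and -0.0046 in the rest of the genome. The middle 50% of the window's regions lay between -0.34 and -0.02, and its extremes were -1.80 (a region of 3.31 CPM in the pseudogene Gm9282, derived error 0.71) and 0.97 (a region of 4.97 CPM 56288 bp from Kcnf1, derived error 0.54). A negative value was found in 356 regions and a positive one in 112, so that 76.1% were negative, against 50.6% in the rest of the genome. All 8 Mb had a negative median, from -0.27 between 19 and 20 Mb to -0.11 between 17 and 18 Mb. Among the 324 windows this median was the sixth lowest. The 5 lower ones lay on chromosomes X and Y, held at most 94 regions each, and had medians from -0.27 to -0.23. The other dense windows named above had medians of -0.08 on chromosome 18 and -0.11 on chromosome 7. Negative medians were also found in the nearby windows of chromosome 12. They were -0.11 from 1 to 9 Mb, -0.08 from 9 to 17 Mb and -0.12 from 25 to 33 Mb. Farther along chromosome 12 the medians ranged from -0.07 to 0.03. Every window of chromosomes 11 and 16 had a positive median, from 0.21 to 0.43. These chromosomes are part of the rest of the genome used for comparison.

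**Figure D2:**
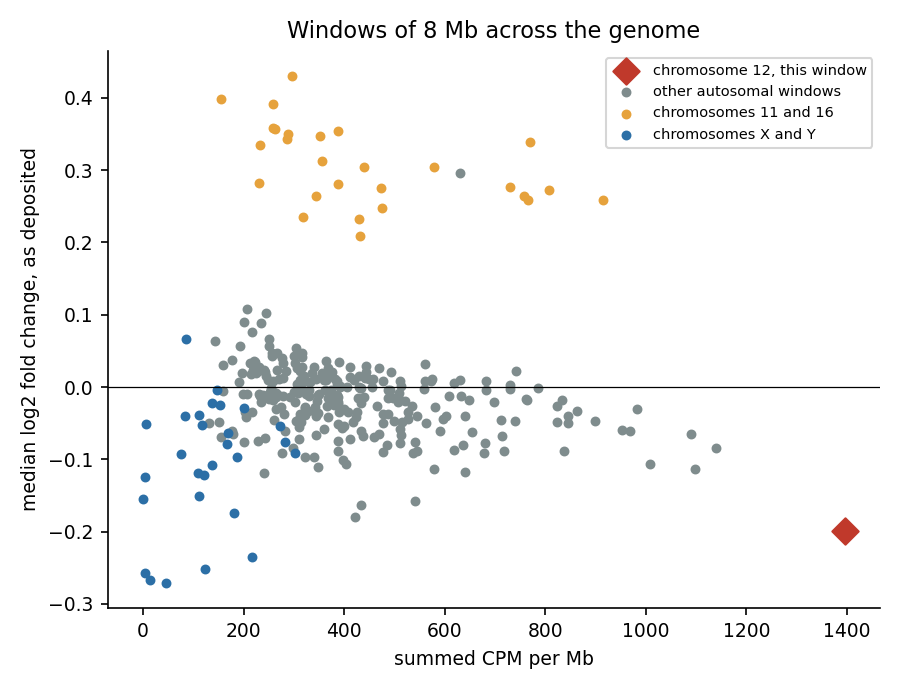
Median deposited log2 fold change against summed CPM per Mb for 324 windows of 8 Mb, with the chromosome 12 window as a red diamond. It stands at 1396 CPM per Mb and -0.20, to the right of every other window and below every other autosomal one. The next lowest autosomal window stands at -0.18.

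The low values were present at every signal level. In regions under 4 CPM the median was -0.22 in the window, against 0.08 in the rest of the genome. The pair was -0.19 and 0.02 at 4 to 16 CPM, -0.20 and -0.04 at 16 to 64 CPM, and -0.22 and -0.08 at 64 CPM and over. The window's medians therefore stayed within 0.03 of each other, while those of the rest of the genome were lower at stronger signal. Relative to regions of like signal in the rest of the genome, the window's median was -0.17 and 351 of 468 regions (75.0%) were negative. With chromosomes 11 and 16 left out of that comparison, the median was -0.15 and 73.3% were negative. The spread narrowed with signal. At 64 CPM and over, where the median derived error was 0.09, 38 of 39 regions were negative and their quartiles were -0.25 and -0.17. The exception in the window, 19185153 to 19190060, had 74.8 CPM and 0.05. Strong regions elsewhere were also mostly negative, with 62 of 76 (81.6%, median -0.11) in the rest of chromosome 12 and 70.2% in the rest of the genome. Without chromosomes 11 and 16, 78.3% of strong regions in the rest of the genome were negative, with a median of -0.09. In the weaker classes the medians without them were 0.04 under 4 CPM, -0.0036 at 4 to 16 CPM and -0.06 at 16 to 64 CPM. All 30 regions of at least 5 kb were negative, against 70.5% of such regions in the rest of the genome.

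**Figure D3:**
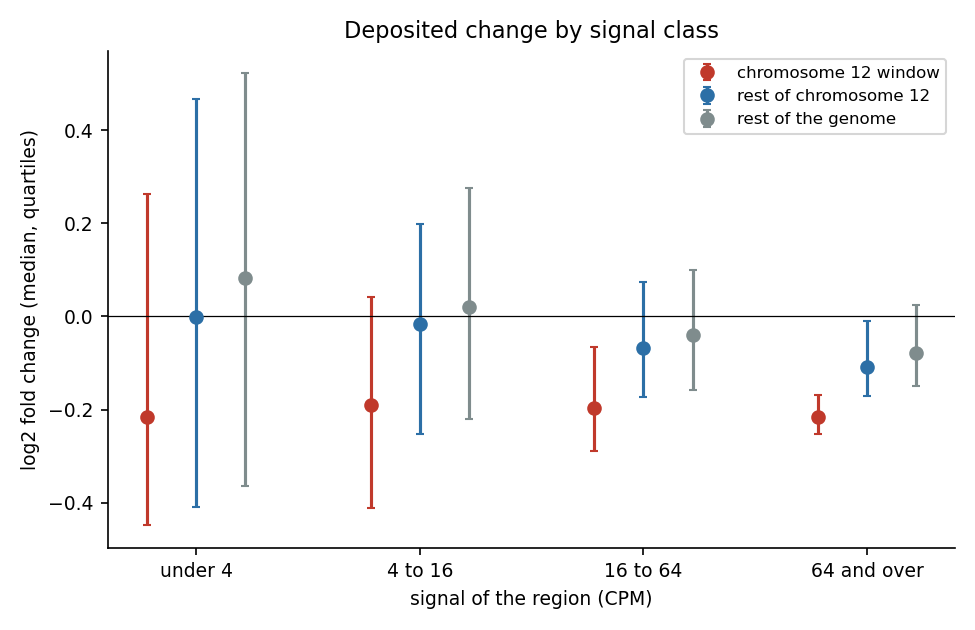
Deposited log2 fold change by signal class in CPM, for the chromosome 12 window, the rest of chromosome 12 and the rest of the genome; points are medians over regions and bars reach the quartiles. The red points lie between -0.22 and -0.19 in all 4 classes.

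By the authors' FDR, 7 regions of the window fell below 0.05, which is 1.496% of its regions, and all 7 were negative. Among all regions 192 were called (0.281%), of which 61 were negative (0.0893%). All 7 calls of the window had at least 64 CPM, a class in which calls were also more frequent elsewhere. In this class 7 of 39 regions of the window were called (17.9%). In the rest of the genome 95 of 2292 were called (4.14%), 37 of them negative. The shares over all signal levels thus also reflect how many strong regions each set holds. An unadjusted p-value below 0.05 was found in 55 regions of the window (11.8%), all negative. Among all regions 4.74% had one, 2.05% negative and 2.7% positive. At 64 CPM and over 64.1% of the window's regions had one, against 25.6% in the rest of the genome. The window was chosen with this comparison in view, so these shares are given only side by side.

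Of the 7 called regions, 6 lay within 632 kb, between 20223522 and 20855791. The strongest is also the strongest region of the whole window and the fourth strongest of the table. It spans 17684 bp (20223522 to 20241206), covers the start of Gm32719, a predicted protein-coding gene, and has 849 CPM, 2.77 times as much as the next strongest. Its log2 fold change in the authors' deposited table was -0.13 (derived error 0.03, FDR 0.0305), and relative to regions of like signal it was -0.03. A region further on, in the pseudogene Gm9269 (20255104 to 20263895, 168 CPM), had -0.30 (derived error 0.07, FDR 0.0222).

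The other calls of this group surround the noncoding RNA genes Gm6626 and 1700030C10Rik without overlapping either gene body. In the authors' deposited table the region from 20842261 to 20855791 had the smallest FDR of the window, 0.00589, with -0.28 (derived error 0.06) at 226 CPM. The regions from 20777506 to 20786154 (175 CPM, FDR 0.0153) and from 20790878 to 20800063 (145 CPM, FDR 0.0293) had -0.30 and -0.31, each with a derived error of 0.07 to 0.08. The weakest call, from 20753673 to 20758729, had 65.7 CPM and -0.45 (derived error 0.12, FDR 0.0474). The seventh call lay apart, in the pseudogene Gm4036. That region is the widest of the window and the ninth widest of the table at 20139 bp (21642715 to 21662854). It had 307 CPM and -0.22 (derived error 0.05, FDR 0.0216).

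Other strong regions had values of the same size without passing the threshold. The region from 20576958 to 20580598 had 47.1 CPM and -0.52 (derived error 0.14, FDR 0.0508). The region in the noncoding RNA gene 3110053B16Rik (20907953 to 20920359) had 236 CPM and -0.22 (derived error 0.06, FDR 0.0979), and that in the predicted gene LOC108167368 (20641795 to 20652091) had 162 CPM and -0.25 (derived error 0.07, FDR 0.146). The region from 20264506 to 20272918, the fifth strongest, had 181 CPM and -0.18 (derived error 0.07, FDR 0.643).

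The densest regions, in CPM per kb among the 154 regions of at least 16 CPM, were in part narrow. After the strongest region, with 48.0 CPM per kb, came one in Gm9269 (20250060 to 20252726) with 35.0 CPM per kb and -0.17 (derived error 0.10, FDR 1). An adjoining pair (18235242 to 18236255 and 18236841 to 18241499) had 34.9 and 28.1 CPM per kb and values of -0.44 and -0.25 (FDR 0.497 and 0.27). The fifth densest of these, from 20292953 to 20300074, had 24.3 CPM per kb and -0.17 (FDR 0.808). Positive values at regions of at least 16 CPM were small and none was called. They were found in 19 of the 154 regions. The highest of them had 0.25 (17583993 to 17585836), 0.25 (17201859 to 17203488, in the noncoding RNA gene Gm36568), 0.23 (in Adam17) and 0.22 (17022643 to 17026036), each with an FDR of 1.

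The listed named genes of the window lie in 3 stretches, which also hold predicted genes, and the fold changes between these stretches were lower than within them. Genes with Gm, LOC or Rik symbols, most of them predicted, made up 50 of 53 genes from Hpcal1 to Asap2 and 48 of 49 from Ywhaq to Taf1b. They made up 11 of 18 from the start of the window to Hpcal1, 4 of 10 from Asap2 to Ywhaq and 8 of 15 from Taf1b to the end. The boundaries below were set from gene positions, with the values per Mb already known, and the difference between stretches was not tested. From Hpcal1 to Asap2 (3.32 Mb, with 21 protein-coding genes and 20 pseudogenes) there were 95.8 regions per Mb with 2670 CPM per Mb. Their log2 fold changes had a median of -0.22, with 255 of 318 regions negative. From Ywhaq to Taf1b (3.08 Mb, with 14 protein-coding genes and 25 pseudogenes) there were 32.5 regions per Mb with 514 CPM per Mb. The median there was -0.20, and 74 of 100 regions were negative. The medians of these stretches were close, although the second held much less signal per Mb.

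In the stretches of named genes the values were near 0. From the start of the window to the end of Hpcal1 (0.792 Mb) there were 51.8 regions per Mb with 835 CPM per Mb, more signal per Mb than from Ywhaq to Taf1b. The middle value there was a log2 fold change of -0.02. Negative values were found in 22 of 41 regions, and among the 13 regions of at least 16 CPM 8 were negative, with values from -0.26 to 0.25. From Asap2 to Ywhaq there were 6 regions in 0.306 Mb with a median of -0.03, and from Taf1b to the end of the window 3 regions in 0.501 Mb with a median of 0.15. Taken as 1 set, the stretches between named genes had 418 regions with a median of -0.22 and 127 of 140 regions of at least 16 CPM negative, against 50 regions with a median of -0.02 and 8 of 14 negative in the stretches of named genes. Relative to like signal the medians were -0.19 and -0.01. All 7 calls and all 55 unadjusted p-values below 0.05 lay in the stretches between named genes. They made up 1.67% and 13.2% of the 418 regions there, against 0.281% and 4.74% of all regions. All 7 calls had at least 64 CPM, so these shares also depend on how many strong regions a set holds. At the shares of all regions few calls or such p-values would be seen among 50 regions. Their absence from the stretches of named genes therefore does not by itself set these apart. The median derived error was 0.23 in the stretches between named genes, against 0.42 in the stretches of named genes, which hold few strong regions.

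**Figure D4:**
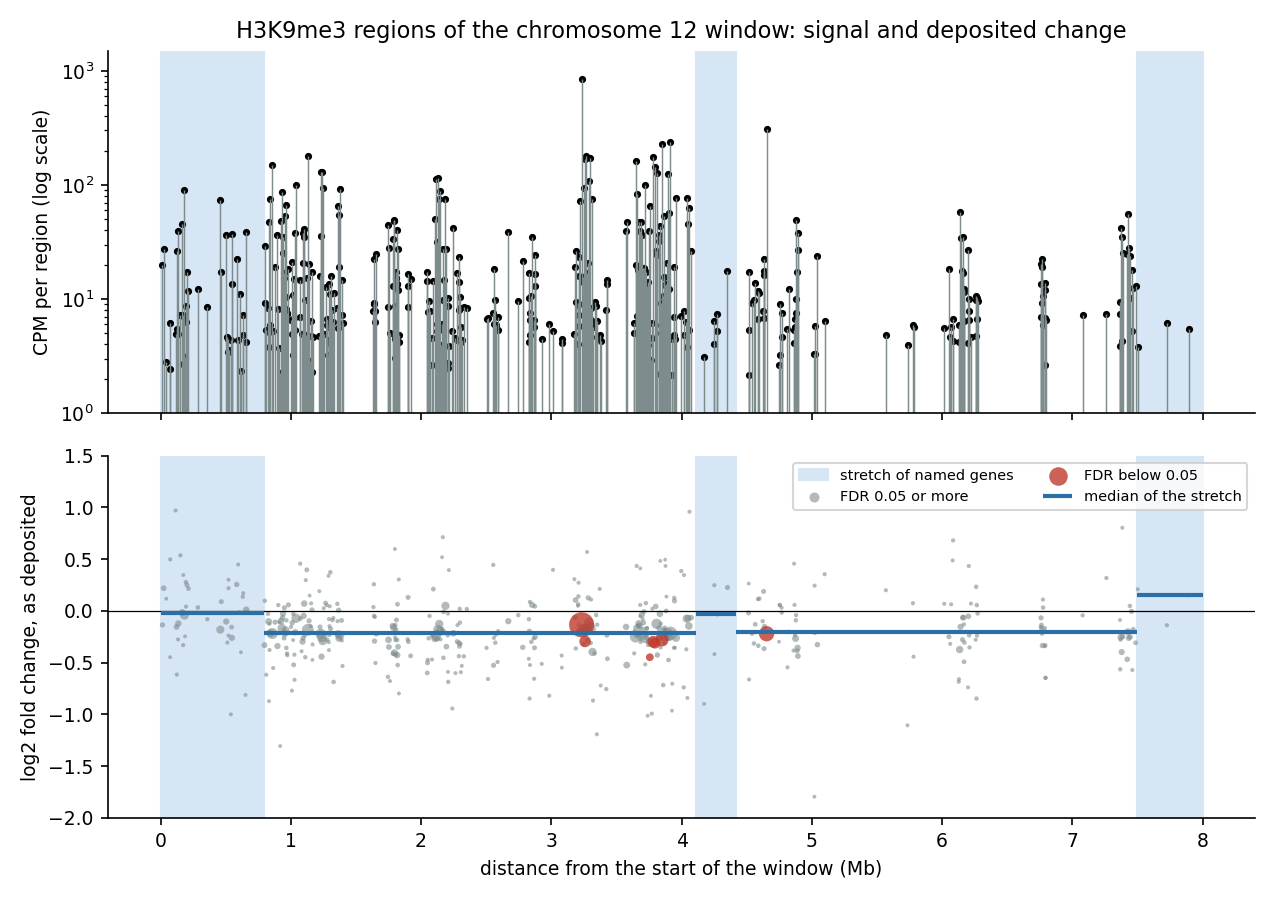
Signal of each region in CPM on a log axis (top) and its deposited log2 fold change (bottom; dot area grows with CPM) against distance from the start of the window in Mb. Blue bands are the stretches of named genes, blue lines the median of each stretch, and red dots the 7 regions with an FDR below 0.05. The line is near -0.02 in the first band and between -0.22 and -0.20 in both wide stretches outside the bands.

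The named genes of the window carried little of its H3K9me3 signal, though many had a region. Of a list of 23 such genes, 19 lie in the window. A region in the gene body or within 5 kb was found at 10 of these, against 81 of all 146 genes of the window. The 18 regions of the named genes held 281 CPM, of 11166 CPM in the window. They had a median of -0.03, 12 negative and 6 positive. By the authors' FDR 0 were called, and 0 had an unadjusted p-value below 0.05, against 0.281% and 4.74% of all regions. At those shares few or none would be seen among 18 regions. The strongest lay beside Kcnf1, a modulatory potassium channel subunit (17180919 to 17186156), with 90.01 CPM and -0.04. Odc1, the rate-limiting enzyme of polyamine synthesis, had a region in its body (17546691 to 17549300) with 36.8 CPM and -0.26 (derived error 0.16, FDR 1), 2 further regions nearby, and a promoter 285 bp from the nearest region. Adam17, the protease that sheds tumour necrosis factor, had a region with 17.6 CPM and 0.23. The regions at Atp6v1c2, a subunit of the proton pump of lysosomes (12.3 CPM, 0.03, also within 5 kb of the disulfide isomerase gene Pdia6), and Nol10, a nucleolar protein gene (8.49 CPM, -0.08), were weaker.

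Others of these genes had very weak regions. At Itgb1bp1, an integrin-binding protein gene, and its neighbour Asap2, a regulator of ARF GTPases, the strongest region had 7.38 CPM and -0.03. Mboat2, a lysophospholipid acyltransferase gene (5.46 CPM, 0.15), and Taf1b, a factor of RNA polymerase I (3.81 CPM, 0.21), had 1 region each. The remaining 9 of the 19 had none within 5 kb. They are Hpcal1, Grhl1, Klf11, Cys1, Rrm2, Ywhaq, Iah1, Cpsf3 and Kidins220. At this depth the smallest change called in any region under 16 CPM of the table was 1.00 on the log2 scale, so that shifts of the size seen in the window were not detectable at these genes.

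The regions in or within 5 kb of the predicted protein-coding genes, a longer list, held more signal, 2229 CPM. The share of these genes with a region was near that of all genes. Of the signal, 849 CPM came from the 1 region that ends at 20241206. It lies mostly before Gm32719, which starts at 20240739. Of 35 protein-coding genes with Gm, LOC or Rik symbols, 21 had a region in the body or within 5 kb, and their 73 regions had a median of -0.25, with 62 negative and 11 positive. By the authors' FDR 1 of the 73 was called, the region at Gm32719, against 0.281% of all regions. At that share few or none would be called among 73 regions. Gm38702 had 13 regions, 10 of them negative, with a median of -0.27, although its strongest region (35.1 CPM) had 0.06. Gm40847, which spans 220 kb, had 9 regions, 8 negative, with a median of -0.30 and a strongest region of 17.1 CPM at -0.50 (derived error 0.23, FDR 0.942). Gm9222 had 9 regions with a median of -0.11 and a strongest region of 86.6 CPM at -0.17 (derived error 0.10). LOC108167368 had 10 regions with a median of -0.19. At Gm40881 the region from 20313606 to 20318347 had 75.3 CPM and -0.40 (derived error 0.11, FDR 0.0705). Gm6943 had a region of 18.4 CPM at -0.53 (derived error 0.23, FDR 0.832), the lowest value of the window among regions of at least 16 CPM.

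Lower down, Gm38699 had 5 regions, all negative, with a median of -0.34, and Gm10479 had 3, all negative, with a median of -0.46. The region at LOC115488029 had 42.1 CPM and -0.22 (derived error 0.15), and that near 2410004P03Rik 20.0 CPM and -0.14. Gm40853, Gm3973, Gm3993, Gm29758, Gm38704, LOC115488002, 9030624G23Rik, Gm38538, Gm40864 and Gm46305 had strongest regions of 3.94 to 13.6 CPM. Zfp996, the single gene of the window with a zinc finger symbol, had 3 regions, all negative, with a median of -0.29 and a strongest region of 14.8 CPM at -0.09. The RefSeq table used here gives no function for the predicted genes, so none is stated.

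Pseudogenes and noncoding RNA genes had values of the same size. Of 50 pseudogenes, 26 had a region in the body or within 5 kb. Their 71 regions had a median of -0.18, with 51 negative and 20 positive. By the authors' FDR 3 were called, all negative, against 0.281% of all regions. They include the call at Gm32719, already counted above, which also lies within 5 kb of Gm9269. The pseudogene Gm9269 had 10 regions with a summed signal of 1369 CPM, including the region shared with Gm32719. Of 39 noncoding RNA genes, 22 had a region. Their 83 regions had a median of -0.21, with 66 negative and 1 called, against the same 0.281%. At that share few or none would be called among 83 regions. Gm4983 had 10 regions, all negative, with a median of -0.25, and Gm9292 had 4, all negative, with a median of -0.52 and a strongest region of 57.8 CPM at -0.37 (derived error 0.13, FDR 0.342). At Mir3066, the one microRNA gene of the window, the nearest region was that in Nol10. No gene of the window had a ribosomal protein symbol. Of the 468 regions, 249 lay farther than 5 kb from any RefSeq gene. Over the whole table, at genes or not, the median was -0.0058 and 34675 of 68291 regions were negative.

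Copies of the same sequence recur on both sides of the Asap2 to Ywhaq stretch. Among the window's promoters 35 pairs, among 26 genes, reached 80% identity in a global alignment. Of these pairs 15, among 13 genes, reached 90%. All 35 pairs lay in the stretches between named genes. Of these, 17 joined a promoter from Hpcal1 to Asap2 with one from Ywhaq to Taf1b, and in all 17 the copies were on opposite strands. The other 18 pairs lay within 1 stretch, all on the same strand. Likewise, 29 of 31 promoters from Hpcal1 to Asap2 were on the plus strand and 21 of 26 from Ywhaq to Taf1b on the minus strand. The 26 include the promoter of Taf1b itself, on the plus strand. The copies in the 2 stretches thus lie in opposite orientation. Whether their order along the chromosome is also reversed was not tested.

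**Figure D5:**
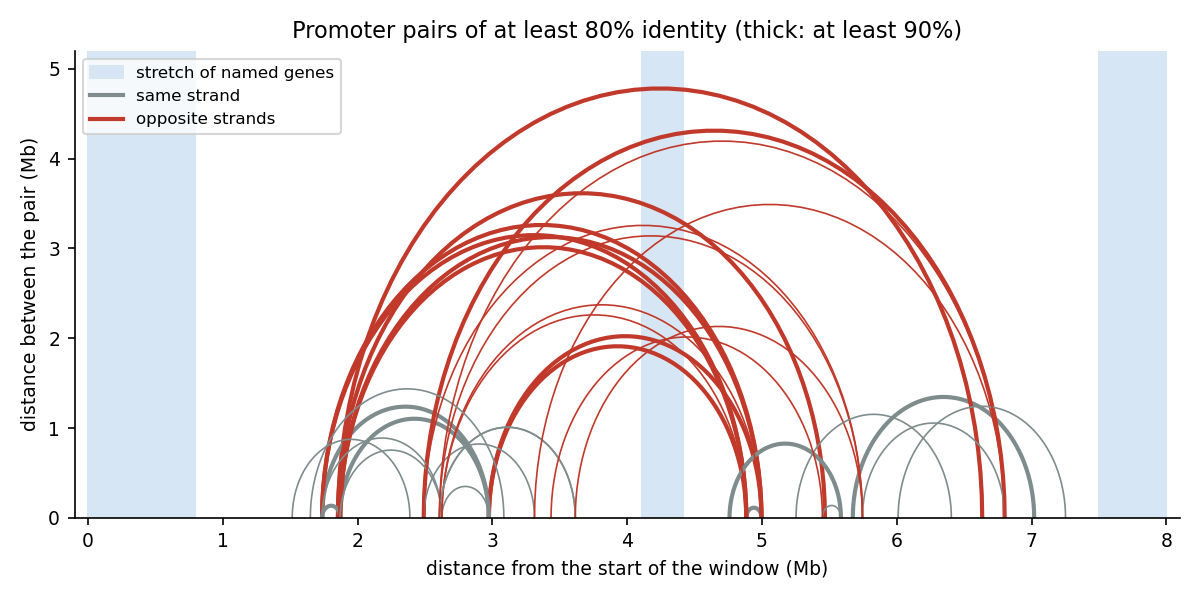
Pairs of promoters with at least 80% identity, drawn as arcs between their distances from the start of the window in Mb; the height is the distance between the copies, and thick arcs reach 90% identity. The 17 red arcs (opposite strands) all cross from one wide stretch to the other, and the 18 grey arcs (same strand) stay within one.

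Near-identical copies also bear on which reads can be placed. Reads were 75 nt long and paired, per the labels. Of the 57 promoters in the stretches between named genes, 28 shared at least 1 run of 75 bases with another promoter position of the RefSeq table. This held for 0 of 33 in the stretches of named genes and for 5.88% of all 32851 promoters. Promoters were placed by position, so that of the named gene Taf1b, just before its start, counts among the 57. It shared no such run. Of the 28, 0 overlapped an H3K9me3 region and 6 (21.4%) lay within 5 kb of one, at a median distance of 21164 bp. Of the 29 others, 2 overlapped a region and 14 (48.3%) lay within 5 kb, at a median of 5892 bp. Among all 32851 promoters 2.73% overlapped a region, so 0 and 2 overlaps do not tell these sets apart. The difference in distance was not tested. How reads with several possible positions were treated is not given in the sources used here. The part of this treatment in the low signal from 22 to 23 Mb or in the fold changes was not tested. In regions that share sequence, a value cannot be assigned to 1 copy with certainty.

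At its edges the window holds regions of both signs. The first regions inside the lower edge (17014362 to 17015657 and 17022643 to 17026036) had -0.14 and 0.22, and the last inside the upper edge (24725790 to 24726416 and 24895495 to 24895995) had -0.14 and 0.15. Just outside, the nearest regions had -0.10 and -0.12 below the window (16786901 to 16787392 and 16810442 to 16810796) and 0.99 and -0.53 above it (25073949 to 25074366 and 25078350 to 25079196). These outer regions had 3.53 to 9.40 CPM, and all 8 had an FDR of 1. Per Mb, medians in the 8 Mb on either side ranged from -0.23 to 0.11, over 13 to 36 regions each.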

How the data were processed

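The study sequenced H3K9me3 immunoprecipitates and input DNA of Tex19.1-/- and Tex19.1+/- embryonic stem cells. Tools named without role or order, per the submitters' processing notes, are edgeR (no version), bedtools 2.25.0, HOMER 4.8 and Bowtie2 2.2.6, with the build mm10. The deposited table holds the authors' log2 fold change, log2 CPM, p-value and adjusted p-value per region, per the file headers. Not given in the sources used here are the definition of regions, the use of input, the libraries that entered, the reference genotype and whether positions count from 0 or 1. The plan allowed for counts per library. With 0 such columns, depth per library is unknown, no test was made, and the authors' FDR is described.

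CPM was taken as 2 to the power of the deposited log2 CPM, and width as end minus start. Applying Benjamini-Hochberg to the deposited p-values gave values that differed from the deposited FDR by at most 3.2e-05. The error of a log2 fold change was derived as its size divided by the normal deviate that matches the authors' p-value (used from 1 upwards), so it inherits the assumptions of their test. Like signal means the same bin of 0.5 in log2 CPM outside the window. Genes and promoters came from RefSeq (GRCm38.p6), and a region was counted at a gene in its body or within 5000 bp. Promoter pairs were aligned globally (match 1, mismatch -1, gap opening -2, extension -0.5). Functions were tested on simulated data. Python 3.11.15, numpy 2.4.6, pandas 2.3.3, scipy 1.17.1 and matplotlib 3.10.9 were used.

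Named regions were those with an FDR below 0.05, the 5 highest in CPM, in width and, at 16 CPM or more, in CPM per kb and in change in each direction, the regions at the edges, and the strongest at each protein-coding gene. The window, the lists and this rule were chosen with earlier results of these data known. Others were chosen after their values were seen, among them those near the threshold and at noncoding genes.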

Additional observations from a re-analysis of the deposited data

How the results depend on the processing

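The median log2 fold change of the window was negative under all 8 alternatives, from -0.22 to -0.15. It shifted most when centred on like signal in the rest of the genome (-0.17), on the rest of chromosome 12 (-0.16) or, added after seeing the data, on like signal without chromosomes 11 and 16 (-0.15). The share of negative regions was 83.3% without regions below a log2 CPM of 3. Of the 7 calls, 1 was left with the FDR threshold at 0.01. Holm's method, added after seeing the data, left 0, while 55 regions had an unadjusted p-value below 0.05 by the authors' test. Of 27 alternatives over all results, 21 stayed within the limits set for each result and 6 moved beyond them. A change of direction was scored only for the median. Normalization, low-count filters and the omission of single libraries could not be tried. No paired analysis was possible because the table holds no values of single libraries. Errors cover what the authors' test covered, and changes of this size are not detectable in weak regions.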
